A study of Mus musculus with 9 samples.

Results

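The neurensin genes Nrsn1 and Nrsn2 and the leucine-rich repeat neuronal genes Lrrn1, Lrrn2 and Lrrn3 were examined in hypothalamic RNA of Clic1 knockout (KO) mice and wild-type (WT) littermates. These 5 genes were found by gene symbol among the 14351 genes of the normalized table, and all 5 listed members were measured. Nrsn1 and Lrrn1 were chosen by their lower level in KO mice of these same libraries, so their differences are given as a description, with no test. Nrsn2, Lrrn2 and Lrrn3 were chosen by family name only, and the question was whether these paralogs, the related genes of each family, differed between KO and WT mice as Nrsn1 and Lrrn1 did.

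Neurensins are small membrane proteins of neurons that are carried on vesicles and have been linked to the growth of neurites, the processes that become axons and dendrites. LRRN proteins span the cell membrane once and hold leucine-rich repeats and an immunoglobulin-like domain on the outside, a layout shared with many molecules that guide axons and organize synapses. Clic1 encodes a chloride intracellular channel protein that exists in soluble and membrane forms.

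The KO mice lacked Clic1 in the whole body and the controls were WT littermates, all fed chow, with 1 library per mouse. The study describes a CD-1 background, whereas the sample labels give a C57b/6J strain, male animals, and a protocol text on perigonadal adipose tissue beside the tissue label hypothalamus. The 5 KO libraries are replicates 2, 4, 6, 8 and 10, and the 4 WT libraries are replicates 1, 3, 9 and 11. Replicate 10 has conflicting labels, since its title and treatment field read WT and its description names a KO column. It was placed with KO by its description, and the KO minus WT difference of each of the 5 genes is given with it, without it, and with it as WT. Values are reads per M reads after library scaling (normalized CPM), and fold changes are differences of log2(CPM + 0.1) between KO and WT means.

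Clic1 itself was at 3.58 to 5.52 CPM in WT and 0.733 to 1.93 CPM in KO mice. Replicate 10, at 1.43 CPM, lay between other KO libraries and below all WT libraries in Clic1. The steps between low values gave estimated totals of 7.28 to 10.97 M reads in WT and 5.45 to 20.8 M reads in KO libraries, with the highest total in replicate 10. The Spearman correlation across genes of replicate 10 with the other libraries was 0.972 to 0.976, against 0.989 to 0.995 among the other 8. Of 13 hypothalamic marker genes all were measured, and 6 of 6 adipose markers were not in the table. These totals put between 498 and 3491 estimated reads behind each value of the 5 genes, a counting error of 1.69% to 4.48%, which covers counting only.

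The members of each family are alike in sequence but differ throughout. The coding sequences of Nrsn1 and Nrsn2 were 58.9% identical over aligned bases, those of Lrrn1 and Lrrn3 61.7%, those of Lrrn1 and Lrrn2 59.3%, and those of Lrrn2 and Lrrn3 58.7%. The stretch below of 60 coding bases is from Nrsn1 (chr13:25253675-25253734, minus strand) and Nrsn2 (chr2:152369847-152369906, minus strand), in GRCm38. It is the most alike among the ungapped stretches of their alignment that lie within a coding exon of each gene. It shows how a pair of paralogs can be told apart. Capitals mark the 36 bases that are identical in both.
Nrsn1: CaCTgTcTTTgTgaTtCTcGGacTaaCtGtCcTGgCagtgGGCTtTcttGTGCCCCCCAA
Nrsn2: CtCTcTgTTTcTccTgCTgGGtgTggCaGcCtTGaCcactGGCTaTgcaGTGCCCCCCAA
The same was read for Lrrn1 (chr6:107568165-107568224, plus strand) and Lrrn3 (chr12:41453344-41453403, minus strand), the closest LRRN pair, with 49 identical bases of 60 in capitals.
Lrrn1: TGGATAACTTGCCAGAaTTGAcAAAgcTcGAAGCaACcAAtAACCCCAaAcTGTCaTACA
Lrrn3: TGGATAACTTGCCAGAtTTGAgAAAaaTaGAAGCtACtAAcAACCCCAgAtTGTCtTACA
The longest run of identical bases between the longest coding transcripts was 12 bases for Nrsn1 and Nrsn2 and 17 for Lrrn1 and Lrrn3. No stretch of 50 bases was shared between any of the 5 genes. Nrsn2 shared 10.7% of its 50-base stretches with Gm14164, an antisense non-coding gene that overlaps its exons and was not in the table, so reads of these partners may be divided. The other 4 genes shared none with any annotated gene.

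Nrsn1 (ENSMUSG00000048978, chr13:25252040-25270502, minus strand, 4 exons) had the larger difference of the chosen pair. It stood at 146.9, 165.1, 164.1, 165.6 and 134.1 CPM in KO replicates 2, 4, 6, 8 and 10, and at 227.7, 250.2, 241.7 and 232.7 CPM in WT replicates 1, 3, 9 and 11. All KO libraries were below all WT libraries, and replicate 10 was the lowest. WT mice averaged 238 ± 9.96 CPM (SD, n = 4) and KO mice 155 ± 14.1 CPM (SD, n = 5), a log2 difference of -0.62 (standard error 0.07), with KO at 65.0% of WT. Without replicate 10 the log2 difference was -0.57 (standard error 0.05). With replicate 10 as WT it was -0.40 (standard error 0.16), and the groups overlapped.

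Nrsn2 (ENSMUSG00000059361, chr2:152368755-152376638, minus strand, 3 exons), the other neurensin, was at 305.9, 286.9, 278.4, 264.9 and 172.6 CPM in KO replicates 2, 4, 6, 8 and 10. In WT replicates 1, 3, 9 and 11 it was at 279.9, 268.9, 284.6 and 273.3 CPM. Replicate 10 lay far below the other 8 libraries, and the other 4 KO libraries spanned the whole WT range. WT mice averaged 277 ± 6.93 CPM (SD, n = 4) and KO mice 262 ± 52.0 CPM (SD, n = 5), and 284 ± 17.2 CPM (SD, n = 4) without replicate 10. The log2 difference was -0.11 (standard error 0.14, adjusted p = 0.904 in limma over all genes, exact permutation test p = 0.841, two-sided), which is smaller in size than its standard error. Its 95% interval put KO between 75.5% and 114% of WT. Without replicate 10 the difference was 0.04 (standard error 0.05, adjusted p = 0.859 in limma), and the interval narrowed to 95.4% to 110% of WT.

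Lrrn1 (ENSMUSG00000034648, chr6:107529768-107570214, plus strand) has its coding sequence in 1 of its 2 exons, as do Lrrn2 and Lrrn3. It was at 93.0, 97.3, 91.4, 90.1 and 71.6 CPM in KO replicates 2, 4, 6, 8 and 10. In WT replicates 1, 3, 9 and 11 it was at 121.9, 122.8, 131.3 and 117.6 CPM. Again all KO libraries were below all WT libraries and replicate 10 was the lowest. WT mice averaged 123 ± 5.72 CPM (SD, n = 4) and KO mice 88.7 ± 9.91 CPM (SD, n = 5), a log2 difference of -0.48 (standard error 0.09), with KO at 71.5% of WT. It was -0.41 (standard error 0.05) without replicate 10 and -0.25 (standard error 0.15), with overlap, with that library as WT.

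Lrrn2 (ENSMUSG00000026443, chr1:132880273-132940005, plus strand) was at 142.8, 131.0, 141.2, 135.9 and 100.5 CPM in KO replicates 2, 4, 6, 8 and 10 and at 144.2, 128.1, 148.2 and 150.3 CPM in WT replicates 1, 3, 9 and 11. The groups overlapped, with WT replicate 3 below all KO libraries except replicate 10. WT mice averaged 143 ± 10.1 CPM (SD, n = 4) and KO mice 130 ± 17.3 CPM (SD, n = 5). The log2 difference of -0.14 (standard error 0.10, adjusted p = 0.857 in limma, exact permutation test p = 0.254) did not pass the threshold, and its 95% interval ran from 77.8% to 106% of WT. Without replicate 10 it was -0.05 (standard error 0.06, adjusted p = 0.831 in limma), with an interval of 88.9% to 105% of WT.

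Lrrn3 (ENSMUSG00000036295, chr12:41451668-41486431, minus strand), which lies on the opposite strand inside the span of Immp2l, a mitochondrial inner membrane peptidase gene, was at 88.9, 97.7, 93.4, 95.4 and 79.2 CPM in KO replicates 2, 4, 6, 8 and 10. In WT replicates 1, 3, 9 and 11 it was at 94.4, 96.6, 94.6 and 94.9 CPM. The WT values lay close together and inside the range of the KO values. WT mice averaged 95.1 ± 0.985 CPM (SD, n = 4) and KO mice 90.9 ± 7.29 CPM (SD, n = 5), a log2 difference of -0.07 (standard error 0.07, adjusted p = 0.880 in limma, exact permutation test p = 0.349). The 95% interval of this difference put KO between 85.7% and 106% of WT. Without replicate 10 the difference was -0.02 (standard error 0.05, adjusted p = 0.934 in limma), and the 95% interval placed KO between 91.6% and 106% of WT. Among WT mice the coefficient of variation of Lrrn3 was 1.04%, against a median of 5.61% over the 4796 genes between 50 and 500 CPM, and below the counting error of its own reads. That of Nrsn1 was 4.18%, of Nrsn2 2.504%, of Lrrn1 4.63% and of Lrrn2 7.06%.

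**Figure D1:**
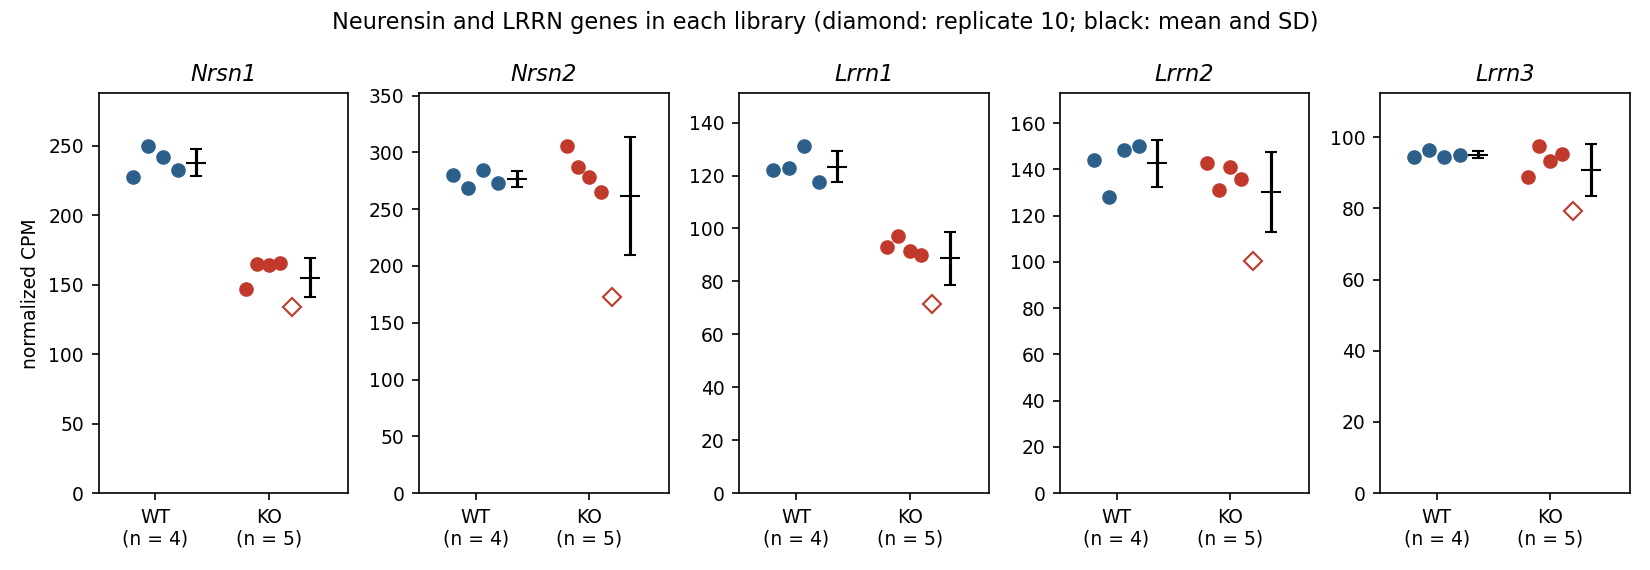
Normalized CPM (vertical axes, from 0, a scale for each gene) of Nrsn1, Nrsn2, Lrrn1, Lrrn2 and Lrrn3 in each WT (blue) and KO (red) library, with mean and SD in black and replicate 10 as an open diamond. KO and WT points are apart for Nrsn1 (134.1 to 165.6 against 227.7 to 250.2) and Lrrn1, and they overlap for the other 3 genes.

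Of the 3 paralogs tested, 0 passed an adjusted p of 0.05 in limma, and 0 had an unadjusted p under 0.05, with and without replicate 10. With replicate 10 as WT the log2 difference was 0.17 for Nrsn2 (adjusted p = 0.7996 in limma), 0.05 for Lrrn2 (0.921) and 0.03 for Lrrn3 (0.928). Among all 14351 genes, 41 were past that threshold (0.286%), 20 higher and 21 lower in KO mice, and 87 (0.606%) without replicate 10, so at these shares no call among 3 genes is the usual outcome. In 250 genes, 1.74% of all, all KO values were under all WT values, and Nrsn1 and Lrrn1, which were selected on this contrast, are among them. The intervals without replicate 10 bound the paralogs more closely than the test does. Their lower bounds were 95.4% of the WT level for Nrsn2, 88.9% for Lrrn2 and 91.6% for Lrrn3. With all 9 libraries the lower bounds were wider, at 75.5% for Nrsn2, 77.8% for Lrrn2 and 85.7% for Lrrn3. The smallest two-sided p of an exact permutation test is 0.0159 for 5 against 4 libraries and 0.0286 for 4 against 4.

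**Figure D2:**
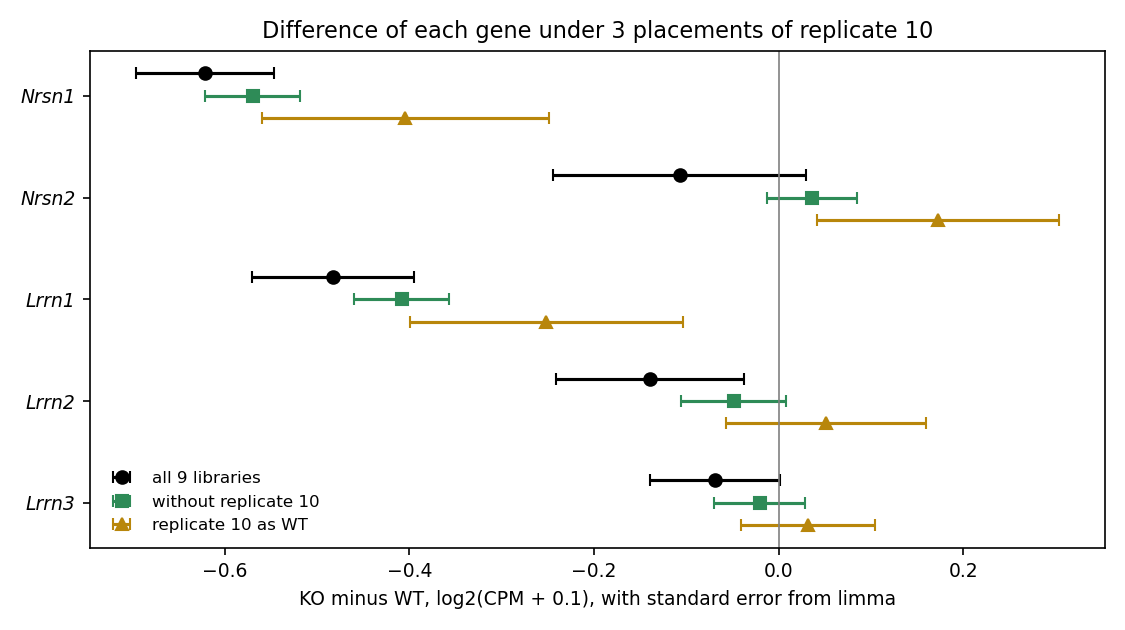
KO minus WT difference of each gene on the log2(CPM + 0.1) scale (horizontal axis), with standard errors from limma, for all 9 libraries (circles), without replicate 10 (squares) and with replicate 10 as WT (triangles). Nrsn1 runs from -0.62 to -0.40 and Lrrn1 from -0.48 to -0.25, both selected on this contrast, and Nrsn2, Lrrn2 and Lrrn3 move from below to above 0 as replicate 10 changes place.

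Ratios of paralogs within a library do not depend on how libraries were scaled. The ratio of Nrsn1 to Nrsn2 in CPM was 0.814 to 0.930 in WT and 0.480 to 0.777 in KO libraries, and the highest KO ratio was that of replicate 10, the next being 0.625. Nrsn1 made up 32.4% to 43.7% of the neurensin sum in KO and 44.9% to 48.2% in WT libraries. The ratio of Lrrn1 to Lrrn3 was 0.904 to 1.05 in KO (0.944 to 1.05 without replicate 10) and 1.24 to 1.39 in WT, and that of Lrrn1 to Lrrn2 was 0.647 to 0.742 in KO and 0.783 to 0.959 in WT. These 3 ratios did not overlap between the groups, as a description, because each holds a gene selected on the contrast. The ratio of Lrrn2 to Lrrn3, which holds none, was 1.27 to 1.61 in KO (1.34 to 1.61 without replicate 10) and 1.33 to 1.58 in WT, and it overlapped.

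**Figure D3:**
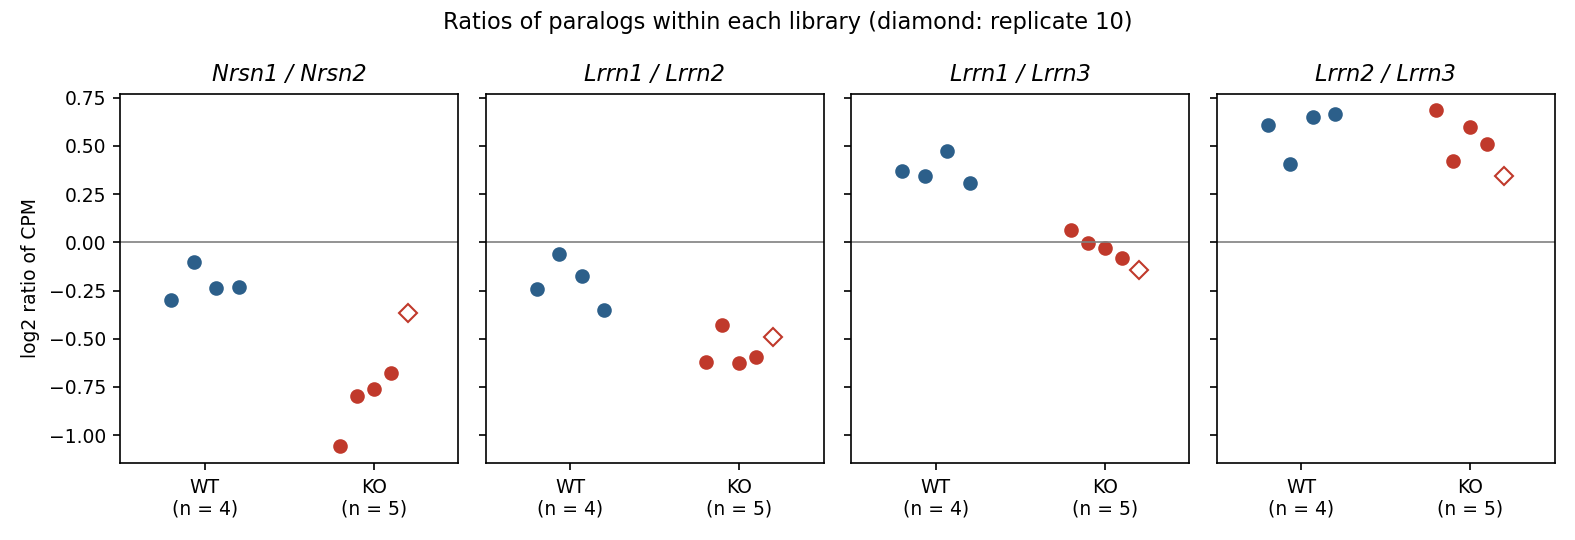
Log2 ratio of the CPM of 2 paralogs (vertical axis) in each WT (blue) and KO (red) library, with replicate 10 as an open diamond. The ratios with Nrsn1 or Lrrn1 are lower in KO without overlap, and the Lrrn2 to Lrrn3 ratio overlaps.

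Nrsn1 and Nrsn2 together were at 430 to 453 CPM in KO libraries other than replicate 10, at 307 CPM in replicate 10, and at 506 to 526 CPM in WT. The 3 LRRN genes together were at 321 to 326 CPM, 251 CPM and 347 to 374 CPM in the same order. Neither sum overlapped between the groups, and each holds a gene selected on the contrast.

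Compared per length of the longest coding transcript, the order of levels in WT was Nrsn2 at 190 ± 4.76 CPM per kb, Nrsn1 at 107 ± 4.48, Lrrn2 at 41.6 ± 2.94, Lrrn1 at 33.4 ± 1.55 and Lrrn3 at 24.6 ± 0.255 CPM per kb (SD, n = 4 each). No neighbours in that order overlapped in WT. In KO the levels were 180 ± 35.7 CPM per kb for Nrsn2, 69.8 ± 6.37 for Nrsn1, 38.0 ± 5.04 for Lrrn2, 24.0 ± 2.68 for Lrrn1 and 23.5 ± 1.89 for Lrrn3 (SD, n = 5 each). There Lrrn1 and Lrrn3 overlapped, at 19.4 to 26.3 and 20.5 to 25.3 CPM per kb. Without replicate 10 the KO levels were 195 ± 11.8, 72.2 ± 4.06, 40.2 ± 1.57, 25.1 ± 0.846 and 24.3 ± 0.969 CPM per kb in the same order of genes (SD, n = 4 each), and Lrrn1 and Lrrn3 still overlapped.

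Replicate 10 was the lowest of the 9 libraries for all 5 genes. Against the mean of the other KO libraries it was lower by 0.72 (log2) for Nrsn2, 0.45 for Lrrn2, 0.37 for Lrrn1, 0.26 for Nrsn1 and 0.24 for Lrrn3. Of the 5028 genes with at least 50 CPM, 37.8% were lowest in this library, and the median deviation was -0.02 with an SD of 0.409. The deviation of Nrsn2 stood at the 3.66 percentile of those genes and that of Lrrn2 at 11.95, whereas Nrsn1 and Lrrn3 stood at 25.6 and 26.8.

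In bulk tissue, fewer cells of a type and less RNA per cell cannot be told apart. The summed level of 13 neuron markers, all measured and none called, was 7221 to 7352 CPM in KO libraries other than replicate 10, 7602 CPM in replicate 10 and 7447 to 8014 CPM in WT. All KO sums other than that of replicate 10 were under all WT sums. Per 1000 CPM of these markers, Nrsn1 was at 17.6 to 22.9 in KO and 29.0 to 32.5 in WT, and Lrrn1 at 9.42 to 13.3 and 14.7 to 17.6, without overlap. The corresponding log2 differences were -0.54 for Nrsn1 and -0.41 for Lrrn1, and -0.03, -0.06 and 0.01 for Nrsn2, Lrrn2 and Lrrn3. Without replicate 10 they were -0.48 for Nrsn1 and -0.32 for Lrrn1, and Nrsn2 and Lrrn2 turned sign, with 0.13 and 0.04, beside 0.07 for Lrrn3. Oligodendrocyte precursor markers (6 of 6 measured) summed to 329.0 to 357.2 CPM in KO other than replicate 10, 313.9 CPM in replicate 10 and 356.6 to 365.5 CPM in WT, with a narrow overlap. The hypothalamic markers summed to 768 to 913 CPM, 948 CPM and 685 to 744 CPM in the same order, so all KO sums were above all WT sums. Their median log2 difference was 0.02, and Avp, which encodes vasopressin, was the 1 gene called. Cortical and hippocampal markers (5 of 6 in the table) summed to 94.5 to 110 CPM, 73.7 CPM and 92.4 to 108 CPM. Striatal markers (5 of 5) summed to 57.3 to 60.6 CPM, 57.9 CPM and 60.9 to 66.1 CPM, so all KO sums were under all WT sums. The median log2 difference of these striatal genes was 0.05, in the other direction. Sums of astrocyte, oligodendrocyte, microglia and ependymal markers overlapped between KO and WT. Endothelial markers (6 of 6) summed to 188.6 to 208.9 CPM, 212.4 CPM and 173.8 to 189.4 CPM, with a narrow overlap. Thalamic markers (5 of 5) summed to 365 to 389 CPM, 472 CPM and 372 to 394 CPM, and also overlapped. The part of these marker levels in the results on the 5 genes was not tested.

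Other neuronal leucine-rich repeat genes were then examined, a list of 42 that held the LRRTM, SLITRK, FLRT, LINGO and related families of synapse organizers and axon guidance molecules, besides the remaining LRRN genes. Of its 41 measured genes, 0 passed the limma threshold with or without replicate 10, against 0.286% of all genes (0.606% without replicate 10). With all 9 libraries 0 of the 41 had an unadjusted p under 0.05 in limma, against 6.50% of all genes. Without replicate 10 the smallest adjusted p of the list was 0.286 in limma, that of Lrrtm2. Unadjusted p-values of the list were not counted in that fit. The log2 differences ran from -0.27 to 0.14 with a median of -0.07, against 0.00 over all genes, and the median was 0.01 without replicate 10. The most negative value belonged to Lrrtm2, a synaptic organizer that binds neurexins, at 111 ± 2.18 CPM (SD, n = 4) in WT and 93.0 ± 17.0 CPM (SD, n = 5) in KO mice (log2 difference -0.27, adjusted p = 0.775 in limma, and -0.14 without replicate 10). It was the only listed gene whose KO values were all under its WT values, 1 of 41 against 1.74% of all genes, which is near that background. Slitrk1 and Slitrk2, which act in synapse formation, had -0.18 and -0.17, both -0.05 without replicate 10. Lrrn4, named here as a more distant relative, was at 4.13 ± 0.462 CPM (SD, n = 4) in WT and 3.95 ± 0.428 CPM (SD, n = 5) in KO mice, far below the other LRRN genes.

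A list of 23 genes of neurite growth and synaptic vesicles, the processes neurensins are linked to, was measured in full. With all 9 libraries 0 passed the limma threshold and 1 of 23 had an unadjusted p under 0.05, against 6.50% of all genes. The median log2 difference was 0.03, against 0.00 over all genes, and -0.00 without replicate 10. Sv2b, a synaptic vesicle glycoprotein gene, was at 116 ± 7.51 CPM (SD, n = 4) in WT and 95.6 ± 5.39 CPM (SD, n = 5) in KO mice, with no overlap. Its log2 difference of -0.28 (standard error 0.07) missed the threshold (adjusted p = 0.219 in limma, and 0.0642 without replicate 10). Gpm6a, a neuronal membrane glycoprotein gene named after its values were seen, was the other listed gene without overlap, with WT at 768 to 791 CPM and KO at 670 to 767 CPM. These were 2 of 23 genes, against 1.74% over all genes, a difference that was not tested. Stmn3, a regulator of microtubules, and Vamp2, a vesicle fusion protein gene, had log2 differences of 0.27 and -0.26, which became -0.03 and 0.05 without replicate 10, where they stood at 840.5 and 299.9 CPM.

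**Figure D4:**
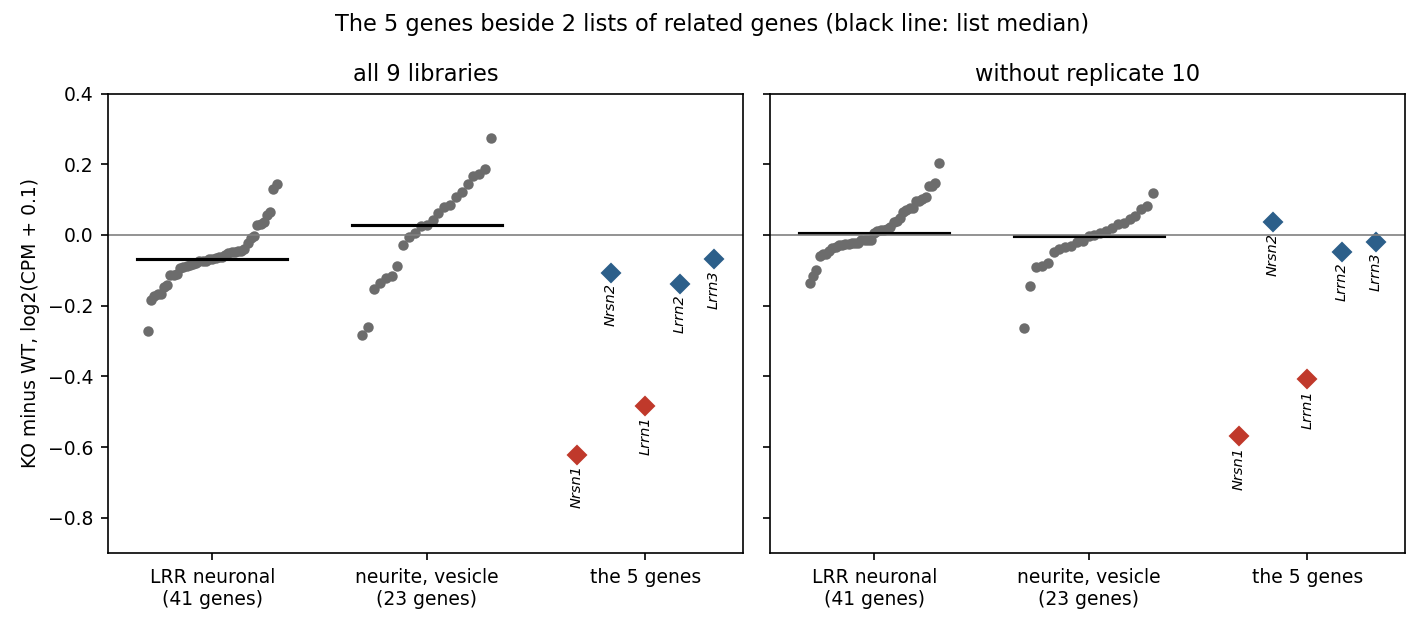
KO minus WT differences on the log2(CPM + 0.1) scale (vertical axis) of 41 neuronal leucine-rich repeat genes, 23 neurite and vesicle genes (grey points, medians as black lines) and the 5 genes (diamonds, red for Nrsn1 and Lrrn1), with all 9 libraries at left and without replicate 10 at right. Nrsn1 and Lrrn1 were selected for lower KO values. The listed genes were chosen by protein class, with earlier results of these data known, so the places of the 2 kinds cannot be compared. Nrsn2, Lrrn2 and Lrrn3 lie within the range of the lists in both panels.

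The genes whose pattern over the 9 libraries was nearest to a member were named by the root mean square distance of log2 values centred per gene, over 12071 genes. For Nrsn1 they were Nmnat2, an enzyme of NAD synthesis that protects axons (distance 0.10), Cenpx, a small protein of kinetochores and DNA repair (0.10), and Lrrn1 (0.10), while Nrsn2 was at rank 3077. For Lrrn1 they were Tmem38a, an intracellular cation channel gene (0.07), Cenpx (0.10) and Golga7, which serves protein palmitoylation (0.10), and Nrsn1 was at rank 6. For Nrsn2 they were Zfp628, Atp6v0e2 and Cdip1, and Nrsn1 was at rank 7670. For Lrrn2 they were Tmem9, Mau2 and Gpr89, and for Lrrn3 Pum2, Psd3 and Fam171b. The likeness of Nrsn1 and Lrrn1 includes the contrast by which both were chosen, and that of the other 3 includes the low values of replicate 10.

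Genes within 0.5 Mb of each member were listed next. Around Nrsn1, 8 genes were measured with a median log2 difference of -0.32. One of the 8 was called, against 0.286% of all genes, and that was Mrs2, a mitochondrial magnesium channel gene, at 82.7 ± 5.26 CPM (SD, n = 4) in WT and 45.6 ± 5.93 CPM (SD, n = 5) in KO mice, 0.23 Mb away (log2 difference -0.86, adjusted p = 0.0027 in limma, and -0.79 without replicate 10). Gpld1, next to it, had -0.29 (adjusted p = 0.290 in limma) and -0.34 without replicate 10 (adjusted p = 0.00602), but it shares 44.4% of its 50-base stretches with Mrs2, so reads of this pair may be divided. The nearest gene to Nrsn1, Dcdc2a, at a gap of 0.041 Mb, had -0.34 (adjusted p = 0.759 in limma), Acot13 -0.43 (0.579) and Tdp2 -0.49 (0.321). Unadjusted p-values in limma were 0.0021 for Gpld1, 0.0024 for Tdp2, 0.012 for Acot13 and 0.040 for Dcdc2a. Over all genes, 6.50% had an unadjusted p under 0.05. In Mrs2, Gpld1 and Tdp2 all KO values were under all WT values, against 1.74% of all genes. The other 3 genes lay between -0.06 and 0.07. Whether the neighbours of Nrsn1 differ as a group was not tested.

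Around the remaining members no gene passed the limma threshold. The 16 neighbours of Nrsn2 ran from -0.37 to 0.34 with a median of 0.02, and the 12 of Lrrn2 from -0.33 to 0.09 with a median of -0.04. Lrrn1 had 1 measured neighbour, Setmar, a histone methyltransferase gene, at -0.13, and Lrrn3 had Immp2l alone, also at -0.13. Setmar lies 0.49 Mb from Lrrn1, and the difference between the Nrsn1 and Lrrn1 neighbourhoods was not tested.

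**Figure D5:**
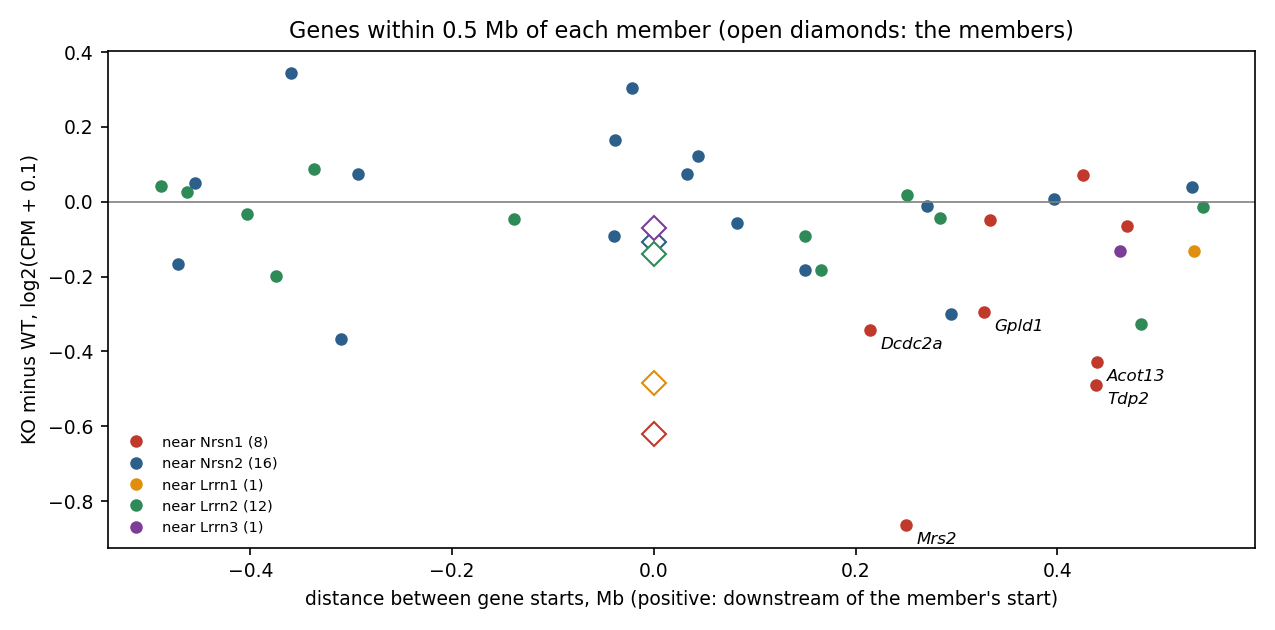
KO minus WT differences on the log2(CPM + 0.1) scale (vertical axis) of genes within 0.5 Mb of each member, by the distance between gene starts in Mb along the member's strand (horizontal axis), with the members as open diamonds at 0. Mrs2 lies lowest at -0.86, and the genes near the other members lie between -0.37 and 0.34.

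Promoter sequences of Nrsn1 and Lrrn1, the pair that was lower in KO, are shown because they are the members whose levels differed. They are from RefSeq in GRCm38.p6, the part upstream of both the RefSeq start and the first start of a coding transcript in GENCODE, with capitals for matches on either strand. For Nrsn1 these starts are at 25269996 and 25270082, inside the gene span given above, because a non-coding transcript of the gene starts further upstream at 25270502, and 68 of the printed bases lie in its exon. The motifs searched were the GC box, spelled GGGCGG, the E-box, spelled CACGTG, the CRE half-site, spelled TGACG, the box named by its letters CCAAT, and the TATA box, spelled TATAAA. No match overlapped another in the printed stretches. The Nrsn1 stretch is chr13:25270083-25270246 (minus strand) and the Lrrn1 stretch chr6:107529476-107529725 (plus strand).
Nrsn1: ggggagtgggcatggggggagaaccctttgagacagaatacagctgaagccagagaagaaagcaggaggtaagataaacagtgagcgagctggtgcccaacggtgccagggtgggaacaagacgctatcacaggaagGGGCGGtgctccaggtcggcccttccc
Lrrn1: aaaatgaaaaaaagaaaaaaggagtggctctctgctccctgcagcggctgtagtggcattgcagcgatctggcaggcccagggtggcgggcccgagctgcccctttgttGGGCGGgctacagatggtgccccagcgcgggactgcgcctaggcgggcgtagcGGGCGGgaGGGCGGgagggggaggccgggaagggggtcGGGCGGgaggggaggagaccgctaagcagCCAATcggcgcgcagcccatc
Over the whole window of 250 bases before the RefSeq start, Lrrn1 held 4 GC boxes and 1 CCAAT box, and Nrsn1 held 2 GC boxes and 1 E-box, of which 1 GC box lies in the printed stretch. Nrsn2 held 1 GC box and Lrrn2 none of the 5 motifs. Lrrn3 had no entry among the promoters used, so its promoter was not examined. Of 32851 promoters of the same length, 32.7% held a GC box, 33.8% a CCAAT box, 12.4% a TATA box, 6.02% an E-box and 17.8% a CRE half-site. Over the whole window Nrsn1 and Lrrn1 each had 20 CG dinucleotides, Nrsn2 had 9 and Lrrn2 10, against a median of 6. In the part upstream of both starts, Lrrn1 had 20 in 250 bases and Nrsn1 had 5 in 164 bases. Nrsn2 had 5 in 217 bases there and Lrrn2 had 4 in 168 bases. A match is a description of letters and not a binding site.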

How the data were processed

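Hypothalamic RNA of 5 KO and 4 WT mice was analysed. The authors trimmed reads with Trimmomatic 0.38 (quality control with FastQC 0.11.8), aligned them with STAR 2.5.1a to GRCm38.p6 (Ensembl 98), estimated gene counts with RSEM 1.3.0, kept genes of at least 1 CPM in at least 5 samples, and scaled by TMM in edgeR. The deposited signal is this normalized CPM. Gene symbols came from the authors' table, whose own fold changes and p-values were not used. In each library 81.3% to 86.5% of values up to 2.5 CPM were whole multiples of 1 read (tolerance 0.03), so depth is approximate and no count test was the main one. A further column, 1 in all, is named as a WT library but matches no labelled sample, so it was left out and the WT group analysed here has 4 libraries.

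Values were fitted as log2(CPM + 0.1), which understates the change of low genes, with limma 3.58.1 in R 4.3.3 (trend, condition only, Benjamini-Hochberg over 14351 genes, threshold 0.05) beside two-sided exact permutation tests (scipy 1.17.1). Simulated data with known changes were used to check it. Nothing says whether mice of a group shared litters or preparation days. Positions and transcripts are from GENCODE mouse release 21, of the same build, and promoters from RefSeq. Coding sequences were aligned with biopython 1.88. Genes named were the members, the 3 listed genes with the largest difference in each list, neighbours within 0.5 Mb, and the 3 nearest patterns per member. The members and lists were chosen with earlier results of these data known. Alternatives were other pseudocounts, filters, scalings, variance models, sample weights, limma-voom on estimated counts, each library left out, and replicate 10 as WT. Division by neuron markers, with and without replicate 10, was chosen after seeing the data.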

Additional observations from a re-analysis of the deposited data

Results flagged for a closer look

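In 2 of 10 groups of values tested for a library far from the rest of its group, KO replicate 10 stood apart. By chance about 1 in 20 independent groups, or 0.5 of 10, would be flagged. These groups come from the same libraries, so that number is not a fair comparison. Of the genes with at least 50 CPM, 37.8% were lowest in replicate 10. Nrsn2, for which replicate 10 was lower than the other KO libraries by 0.72 (log2), was not flagged. In replicate 10 Lrrn1 was at 71.6 CPM, whereas the remaining KO mice lay between 90.1 and 97.3 CPM, a gap of 0.719 of the range of the group. Its Lrrn2 was 100.5 CPM against 131.0 to 142.8 CPM, a gap of 0.721 of the range. The library has conflicting genotype labels, and its Clic1 level of 1.43 CPM lay between other KO libraries and below all WT libraries.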

How the results depend on the processing

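No paired analysis was possible because no pairing of KO with WT mice is recorded. With replicate 10 as WT the log2 difference became -0.40 for Nrsn1, -0.25 for Lrrn1, 0.17 for Nrsn2, 0.052 for Lrrn2 and 0.032 for Lrrn3, so the 3 tested paralogs changed sign. Nrsn2 also changed sign with sample weights (0.022) and without replicate 10 (0.036), and Lrrn3 when divided by the neuron marker sum (0.0086, added after seeing the data). With that division and without replicate 10 the values were -0.48 for Nrsn1, -0.32 for Lrrn1, 0.126 for Nrsn2, 0.041 for Lrrn2 and 0.070 for Lrrn3. As each library was left out in turn, Nrsn1 lay between -0.65 and -0.57, Lrrn1 between -0.52 and -0.41, Nrsn2 between -0.17 and 0.04 (adjusted p 0.834 to 0.992 in limma), Lrrn2 between -0.19 and -0.05 (0.799 to 0.992) and Lrrn3 between -0.10 and -0.02 (0.810 to 0.992). Over the other alternatives the adjusted p in limma was 0.797 to 0.938 for Nrsn2, 0.713 to 0.921 for Lrrn2 and 0.756 to 0.928 for Lrrn3, and none of the 3 passed the threshold.

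The count of 41 genes past the threshold became 27 with a mean of at least 5 CPM, where fewer genes are tested, 135 with sample weights, 5 with replicate 10 as WT, and 18 to 87 as each library was left out. It was 87 without KO replicate 10, 27 without KO replicate 6, 25 without KO replicate 8, and 18, 19, 24 and 22 without WT replicates 1, 3, 9 and 11. The cause was not tested. The leucine-rich repeat list had 0 genes past the threshold in each alternative, and the neurite and vesicle list had 1, Sv2b, with sample weights. With 4 or 5 mice a group and 1 doubtful library, changes of Nrsn2, Lrrn2 and Lrrn3 inside the intervals given cannot be seen, and depth limits low genes such as Lrrn4 most.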
